A study of Mus musculus with 8 samples.

Results

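The regions described here were open, by peak call, in the libraries titled ATAC2 and ATAC6 and in none of the 5 others. They were selected on the peak calls themselves: peaks of 7 ATAC-seq libraries were merged where they shared at least 1 base, and a merged region was kept when it held an ATAC2 peak, an ATAC6 peak and no peak of ATAC1, ATAC3, ATAC4, ATAC5 or ATAC7. The rule gave 2235 of 50683 merged regions, or 4.41%. ATAC-seq uses the transposase Tn5, which inserts sequencing adapters into DNA that is not covered by nucleosomes. All libraries came from bone marrow of C57BL/6J mice, wild type and aged 6 weeks, and hold stromal cells that the study had sorted into subpopulations of mesenchymal stem cells, and all were called against 1 Input library. The labels tie no title to a sorted population, so the libraries are named by title. Each title had 1 library, so no value has a replicate and every difference is between libraries, not between conditions. A library is a bulk of many cells, and more cells with an open region or a more open region in each cell cannot be told apart.

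Open chromatin lies mostly at promoters, where transcription starts, and at enhancers, which lie farther away and bind transcription factors that act on nearby genes. Promoters tend to be open in many cell types, whereas enhancers tend to differ between them. In cells of the mesenchymal lineage, enhancers often carry sites of AP-1, the dimer of Fos and Jun proteins that answers growth and stress signals, of RUNX factors, which drive bone and cartilage development, of TEAD factors, the DNA-binding partners of YAP and TAZ, and of homeobox factors, which set position and lineage.

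The sequences of 7 regions are shown as examples of motif matches, while the motif results below count all regions. These 7 are named regions of at most 300 bases, in introns or between genes, chosen because each held 2 of 4 motifs. They are shown 5′ to 3′ on the plus strand of mm9, and capitals mark matches to the motifs of AP-1 (TGANTCA), RUNX (TGTGGTT), homeobox factors (TAATTA) and TEAD (CATTCCA) on either strand. A RUNX match on the minus strand reads AACCACA.
Fgf2 region, chr3:37253257-37253439: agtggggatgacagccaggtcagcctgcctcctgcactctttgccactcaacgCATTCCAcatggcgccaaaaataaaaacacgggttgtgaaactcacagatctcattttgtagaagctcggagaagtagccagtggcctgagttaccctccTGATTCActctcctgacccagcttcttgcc
Atf3 region, chr1:193045992-193046193: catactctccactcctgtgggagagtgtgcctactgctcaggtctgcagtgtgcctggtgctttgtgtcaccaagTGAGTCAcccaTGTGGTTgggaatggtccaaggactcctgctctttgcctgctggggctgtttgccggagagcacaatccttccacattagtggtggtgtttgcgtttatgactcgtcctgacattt
Col1a2 region, chr6:4457470-4457587: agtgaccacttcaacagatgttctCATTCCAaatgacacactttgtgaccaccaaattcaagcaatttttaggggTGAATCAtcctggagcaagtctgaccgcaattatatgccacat
Tcf7l1 region, chr6:72693692-72693807: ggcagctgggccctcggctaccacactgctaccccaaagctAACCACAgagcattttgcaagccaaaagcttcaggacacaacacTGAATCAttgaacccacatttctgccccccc
Itgav region, chr2:83535640-83535824: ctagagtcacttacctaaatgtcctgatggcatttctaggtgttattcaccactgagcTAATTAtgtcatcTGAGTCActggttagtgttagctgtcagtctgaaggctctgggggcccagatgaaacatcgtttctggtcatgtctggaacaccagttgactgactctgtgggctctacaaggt
Cd44 region, chr2:102780333-102780591: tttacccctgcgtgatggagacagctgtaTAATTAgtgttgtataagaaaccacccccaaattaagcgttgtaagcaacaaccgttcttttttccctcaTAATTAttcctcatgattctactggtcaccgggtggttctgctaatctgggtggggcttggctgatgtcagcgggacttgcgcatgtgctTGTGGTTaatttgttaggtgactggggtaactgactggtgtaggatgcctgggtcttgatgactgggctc
Col11a1 region, chr3:113731188-113731427: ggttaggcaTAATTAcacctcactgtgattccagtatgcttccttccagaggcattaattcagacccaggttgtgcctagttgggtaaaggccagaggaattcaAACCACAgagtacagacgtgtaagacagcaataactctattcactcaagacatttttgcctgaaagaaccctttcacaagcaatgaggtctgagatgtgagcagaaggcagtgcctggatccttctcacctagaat
In the Atf3 region the AP-1 match starts at base 76 and the RUNX match at base 87. The Cd44 region had 2 homeobox matches and the Col11a1 region 1, each with a RUNX match. Each region is named after the protein-coding gene with the nearest start site, which is not shown to be the gene it acts on.

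The pair was the most numerous of the 21 pairs of libraries. It made up 27.5% of the 8130 regions with peaks of exactly 2 libraries. ATAC2 and ATAC5 had 1727 such regions, ATAC5 and ATAC6 had 1152, ATAC1 and ATAC5 had 854, and the lowest count was 32 for ATAC6 and ATAC7. The 3 pairs at the top join the 3 libraries with the most peaks, 32280 in ATAC2, 31479 in ATAC5 and 28969 in ATAC6. Relative to the 19845 regions with peaks of both libraries, whatever the others, 11.3% were of exactly ATAC2 and ATAC6, against 8.85% for ATAC2 and ATAC5 and 5.91% for ATAC5 and ATAC6. When each library gave the same number of best-ranked peaks, 15188, the count fell to 553 and the pair still had the most regions of the 21.

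**Figure D1:**
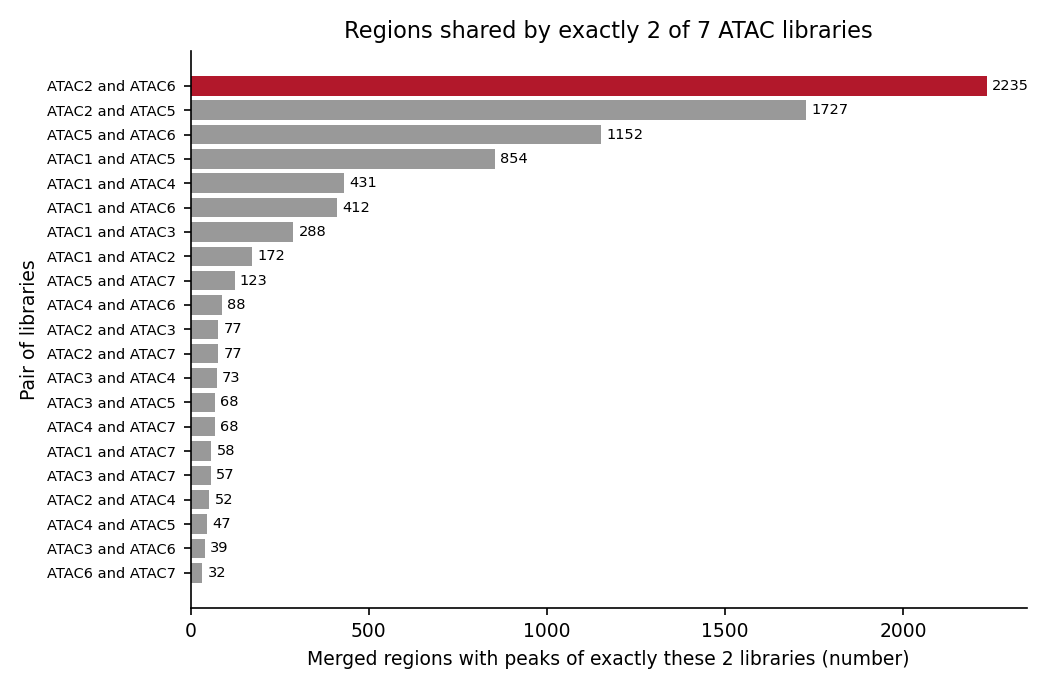
Number of merged regions with peaks of exactly 2 libraries, for each of the 21 pairs of the 7 libraries (horizontal bars from 0; 1 library per title, so no error). The pair of ATAC2 and ATAC6, in red, has 2235 regions and the next pair 1727.

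The regions held 2294 peaks of ATAC2, 7.11% of its list, and 2288 of ATAC6, 7.90% of its list. In 2139 regions there was 1 peak of each library. A merged region was 15 to 942 bases wide, with a median of 226, and its ATAC2 and ATAC6 peaks shared 1 to 481 bases, with a median of 98. Neighbouring regions lay a median of 462368 bases apart. Every chromosome but Y had some: of the merged regions of a chromosome, those of ATAC2 and ATAC6 made up between 2.87% on chromosome 11 and 5.95% on chromosome 18, and 0 of 49 on Y (Wilson upper bound 7.27%).

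The peaks of the regions ranked low in both lists. The caller counts reads in an outer region around each peak, and these counts are used here as strength. Outer regions differ in width, so the read counts of both libraries in a region are not a comparison between them. In 96 regions a library had several peaks, and the values given are those of its best-ranked peak. In 10 of them the best-ranked peaks of ATAC2 and ATAC6 shared no base. The ATAC2 peak held a median of 83 library reads, from 24 to 895, over a median of 13 Input reads, and the ATAC6 peak held a median of 69, from 24 to 978, over 12. Over all peaks the medians were 111 library reads in ATAC2 and 122 in ATAC6. The fold over Input had a median of 10.7 in ATAC2 and 9.28 in ATAC6, beside 9.27 and 10.1 over all peaks of the lists. An Input count of 0 gave 6 ATAC2 peaks and 7 ATAC6 peaks a fold with no meaning. By the caller's rank, 28.1% of the regions lay in the better 50% of the ATAC2 list and 9.31% in the better 50% of the ATAC6 list. Only 139 regions (6.22%) did so in both, and the best rank was 2585 in ATAC2 and 5218 in ATAC6. By comparison, 87.6% of ATAC2 peaks and 92.4% of ATAC6 peaks in regions of all 7 libraries lay in the better 50%. Like sets lay on either side. In the ATAC2 list 11.1% of peaks in regions of ATAC2 alone and 15.3% of those of ATAC2 and ATAC5 lay in the better 50%, below the 27.5% of peaks in the regions described, and 40.6% of those of exactly ATAC2, ATAC5 and ATAC6 did. In the ATAC6 list the shares were 8.18% for ATAC6 alone and 12.7% for ATAC5 and ATAC6 and 23.5% for the 3 libraries, beside 9.09%. Since the peak calls chose the regions, these values describe them.

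In these regions, chosen for a peak call in both libraries, the density of reads differed little between them. Reads per 1000 bases of outer region, multiplied by each library's scale factor to Input, had a median of 375 in ATAC2 and 340 in ATAC6. The log2 ratio of ATAC2 to ATAC6 had a median of 0.15 and ran from -1.74 to 1.96. The densities lay within 2-fold of each other in 2196 regions (98.3%), were over 2-fold higher in ATAC2 in 31 and over 2-fold higher in ATAC6 in 8. ATAC2 was the higher in 1442 (64.5%). Across the 2235 regions Pearson's r of the log2 densities was 0.465 and Spearman's rho 0.408. The regions share their position, base composition and Input, so the correlation is a description. The rule required a call in both libraries, and the caller drew each outer region. The narrow range of the ratios is therefore a description too, and no measure of how alike the libraries are.

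**Figure D2:**
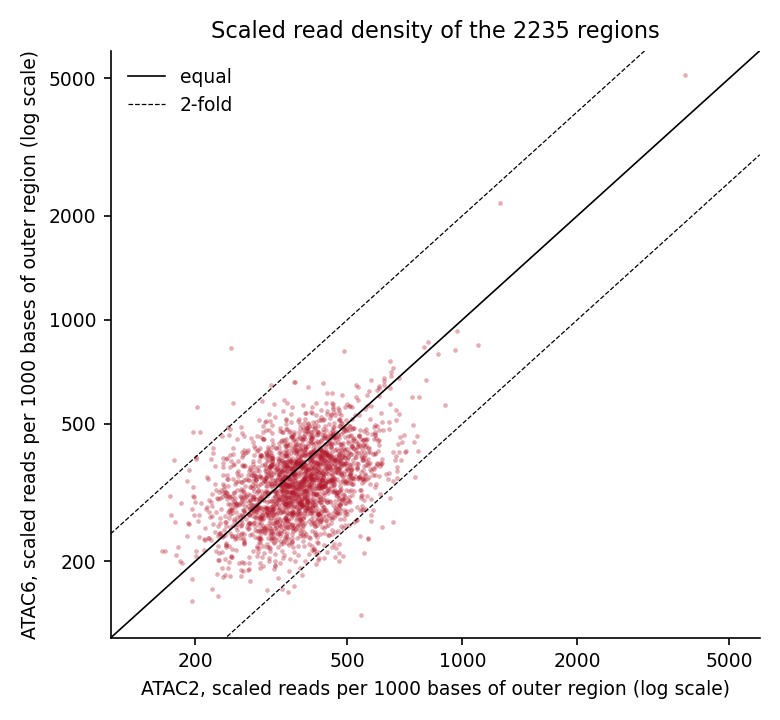
Scaled reads per 1000 bases of outer region in ATAC2 (horizontal) and ATAC6 (vertical), both on log scales, 1 point per region; the solid line marks equal values and the dashed lines 2-fold differences. Of 2235 points, 2196 lie between the dashed lines, and 1 lies apart near the upper right corner.

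The 4 best-ranked regions, by the sum of relative ranks in both lists, each had a peak of another library against them. The first was 203 bases from a start site of Refbp2, at chr1:173433279-173433534, with 895 reads in ATAC2 and 978 in ATAC6 over 88 and 92 Input reads, and an ATAC3 peak began 5 bases away. The region of Dscc1, a gene of sister chromatid cohesion, at chr15:54921645-54921664, had 218 and 309 reads, and an ATAC5 peak adjoined it. The region of Sema3d, a secreted guidance protein, at chr5:12383218-12383420, had 452 and 459 reads and an ATAC5 peak 2 bases away, and that of Ubxn8, at chr8:34752501-34752683, had 261 and 299 reads and an ATAC3 peak 22 bases away. All 4 lay within 381 bases of a start site, and a move of peak edges by so few bases would put them outside the rule.

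Of the 6 regions next in rank, all but the one near Bmp6 had no peak of another library within 1000 bases. An intronic region of Hhat, which attaches palmitate to Hedgehog ligands, at chr1:194562780-194562927, had 709 reads in ATAC2 and 623 in ATAC6 over 73 and 65 Input reads, and the nearest peak of any other library was 8575 bases away. An intronic region of Jarid2, a partner of the Polycomb complex, at chr13:44965001-44965055, had 247 and 317 reads over 63 and 64 Input reads, and the nearest other peak was 98553 bases away. With 3826 and 5093 scaled reads per 1000 bases of outer region it is the point that lies apart in the plot of densities, but its fold of 6.19 and 7.80 was below the medians of the regions. The region between genes at chr1:153110523-153110964, 80885 bases from a start site of Ivns1abp, had 420 and 387 reads over 19 Input reads each, and the one near Myadm at chr7:3287406-3287805 had 483 and 412 over 23 and 22. Both held an AP-1 match, and the nearest other peak was 12311 and 1515 bases away. The 10 best were completed by a region 56453 bases from Bmp6, a bone morphogenetic protein, with 251 and 284 reads and an ATAC5 peak at 480 bases, and by one at a start site of Fbxl2, with 292 and 246 reads and the nearest other peak at 30340 bases.

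The 10 best-ranked regions at least 1000 bases from a start site included the following. The Ctnnd2 region, at chr15:30570300-30570719, had 326 and 240 reads over 19 Input reads each and held AP-1, RUNX and C/EBP matches. A region between genes, with the nearest coding start that of Pcdh7 at 759021 bases, had 210 and 141 reads over 5 and 2 Input reads, and no other library had a peak within 720796 bases. The Foxa2 and Pappa regions had ATAC5 peaks 23 and 13 bases away, and the Tmem121 region an ATAC1 peak 636 bases away.

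Some members only just met the rule. In 128 regions the peaks shared at most 10 bases, among them regions near Dact3, Aim1 and Prkch, where they shared 1 base. In 10 regions a peak of another library adjoined the region without a shared base, as at Dscc1, Stard13 and Dst. Just outside the rule were 101 regions of ATAC2, ATAC6 and 1 further library in which that library shared at most 10 bases. The nearest were regions at Veph1, where ATAC5 shared 1 base, and at Nkx6-3 and Foxk1, where ATAC5 shared 2 bases, and the Veph1 region had 81 reads in ATAC2, 88 in ATAC6 and 90 in ATAC5.

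Where another library came close, it was mostly ATAC5. The nearest peak of any other library was a median of 8984 bases away, and it was an ATAC5 peak for 1292 regions (57.8%) and an ATAC1 peak for 427 (19.1%). Within 500 bases, 369 regions (16.5%, 95% Wilson interval 15.03 to 18.1) had a peak of another library, 313 of them one of ATAC5. Within 5000 bases 892 did (39.9%). The median gap was 10929 bases to ATAC5, 26510 to ATAC1, 35447 to ATAC7, 39227 to ATAC3 and 44515 to ATAC4. ATAC5 had 31479 peaks against 15188 to 24510 in the other 4, and the part of list length in this order was not tested. The merged region itself touched the outer region of a peak of another library in 277 cases (12.4%), of ATAC5 in 253.

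The regions lay away from start sites more often than those of like pairs. Of the 2235, 302 (13.5%, 12.2 to 14.99) had their centre within 1000 bases of an annotated start site. The share was 19.5% (17.7 to 21.4) for ATAC2 and ATAC5, 32.1% (29.5 to 34.9) for ATAC5 and ATAC6, and 19.5% (18.2 to 20.9) for regions of exactly ATAC2, ATAC5 and ATAC6. It was 17.5% for ATAC2 alone, 29.1% for ATAC6 alone, 85.7% for all 7 libraries and 40.0% over all merged regions. The intervals cover counting error over regions, which are not replicates, and the libraries themselves were measured once, so no test was made. The median distance to a start site was 13960 bases, with quartiles of 3832 and 37723, beside 10247 for ATAC2 and ATAC5, 4649 for ATAC5 and ATAC6 and 3252 over all merged regions. Regions of ATAC2 alone had a median of 13267 (12520 to 14018), whose interval overlaps that of the regions (12503 to 15026). Over 50000 bases away were 416 regions (18.6%, beside 19.8% for ATAC2 alone), and over 100000 bases 155. With 500 bases in place of 1 to join peaks the promoter share was 8.95%, and with the same number of peaks per library it was 17.0%.

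**Figure D3:**
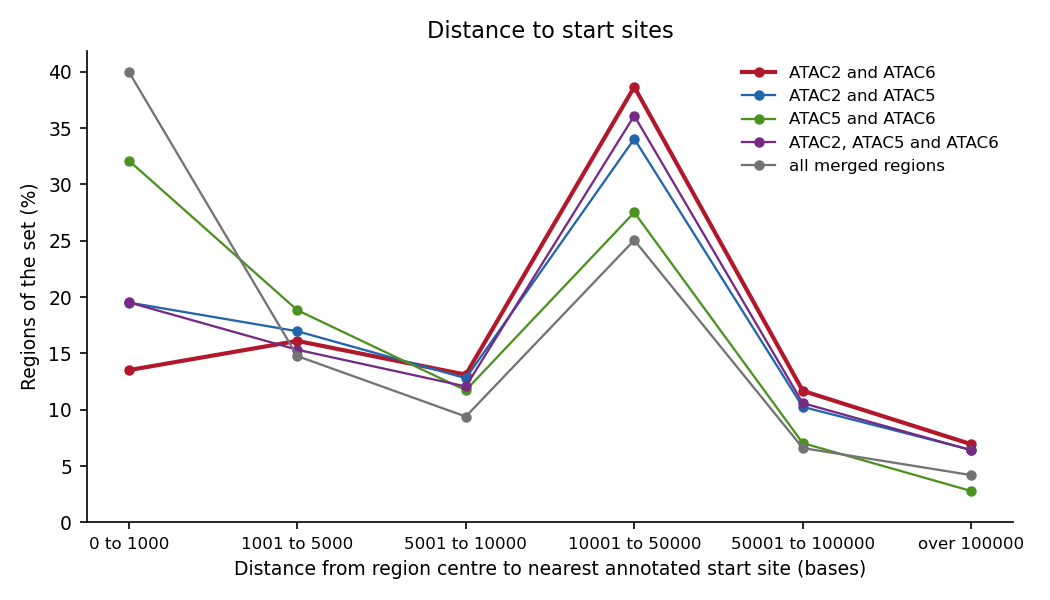
Share of regions (vertical, percent of each set) by distance from the region's centre to the nearest annotated start site (horizontal, bins of unequal width in bases; lines only join the bins). The red line, regions of exactly ATAC2 and ATAC6, is the lowest of the 5 within 1000 bases, at 13.5%, and the highest in the bin that ends at 50000 bases, at 38.7%.

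In the annotation, 1120 regions (50.1%) lay in introns, 961 (43.0%) between genes, 72 (3.22%) in untranslated regions, 59 (2.64%) in coding exons and 23 (1.03%) in noncoding exons. In windows of 300 bases around the centres the median GC content was 50% and the median observed-over-expected CpG ratio 0.221, beside 65.3% and 0.834 for regions of all 7 libraries and 53% and 0.361 over all merged regions. The values were 50% and 0.281 for ATAC2 and ATAC5, 53% and 0.357 for ATAC5 and ATAC6 and 49.7% and 0.232 for ATAC2 alone. The median gap to the nearest region of all 7 libraries was 65759 bases.

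The AP-1 motif stood in more than 1 in 3 of the regions. Within the merged regions themselves it occurred in 806 (36.1%, 34.1 to 38.1), RUNX in 296 (13.2%, 11.9 to 14.7) and the homeobox motif in 173 (7.74%, 6.70 to 8.92). Merged regions differ in width between sets, so sets were compared in windows of 300 bases. There AP-1 matched in 37.9% (35.9 to 39.9) of the regions, 32.7% (30.5 to 34.96) of those of ATAC2 and ATAC5, 22.7% (20.4 to 25.3) of those of ATAC5 and ATAC6, 36.8% (35.2 to 38.5) of those of exactly ATAC2, ATAC5 and ATAC6, and 21.02% of all merged regions. In windows 2000 bases to either side of the same regions the share was 8.48%. In these windows the intervals of the regions and of those of the 3 libraries overlap, and those of the 2 pairs with ATAC5 lie below. Among regions over 1000 bases from a start site the share was 40.6% (38.4 to 42.8), against 36.9% (34.4 to 39.5) for ATAC2 and ATAC5, 28.5% (25.5 to 31.8) for ATAC5 and ATAC6 and 41.6% (39.7 to 43.4) for the 3 libraries, beside 30.0% of all such regions. There the intervals of the regions and of ATAC2 and ATAC5 overlap.

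Over all windows, RUNX and homeobox motifs were more frequent than in the other pairs compared, ATAC2 and ATAC5 and ATAC5 and ATAC6. RUNX matched in 14.6% (13.2 to 16.2) of the windows, against 10.5% (9.18 to 12.1) for ATAC2 and ATAC5, 7.64% (6.24 to 9.32) for ATAC5 and ATAC6, 10.8% (9.81 to 11.9) for the 3 libraries together, 12.1% (11.4 to 12.97) for ATAC2 alone, 8.72% of all merged regions and 6.80% of flanking windows. Among regions over 1000 bases from a start site it was 15.7% (14.2 to 17.4), against 11.4% (9.80 to 13.1) for ATAC2 and ATAC5 and 9.59% (7.72 to 11.9) for ATAC5 and ATAC6, while the interval of ATAC2 alone, 13.4% (12.5 to 14.3), overlaps that of the regions. The homeobox motif matched in 8.55% (7.46 to 9.78), against 4.40% for ATAC2 and ATAC5, 5.21% for ATAC5 and ATAC6, 5.66% for the 3 libraries and 4.42% of all merged regions. Flanking windows held it in 7.70% (6.95 to 8.51), a share whose interval overlaps that of the regions, and their median GC content was lower, 45.7%. The homeobox motif is made of A and T alone, and the part of base composition in its share was not tested. Of ATAC6 regions alone 7.54% held it and of ATAC2 regions alone 6.23%.

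Over all windows, the promoter and insulator motifs were less frequent than in the same 2 pairs. SP/KLF (GGGCGGG), a motif of GC-rich promoters, matched in 6.71% of the windows, against 10.2% for ATAC2 and ATAC5, 18.1% for ATAC5 and ATAC6 and 20.3% of all merged regions, with 3.13% in the flanks. CTCF, the insulator protein, matched in 3.04%, against 5.56% and 9.11% for these pairs and 3.86% of all merged regions, with 0.224% in the flanks. Regions of ATAC2 alone held SP/KLF in 7.55% and CTCF in 3.19%. TEAD matched in 6.85%, C/EBP (TTGCNNAA) in 12.3% and EBF (CCCNNGGGA) in 5.73%, beside 4.47%, 11.5% and 7.46% of all merged regions. The motif of GATA factors, AGATAAG, matched in 1.03%, SOX (CATTGTT) in 2.01% and MEF2 (TATTTTA) in 5.10%, beside 2.66%, 2.46% and 4.09% of all merged regions and 3.85%, 4.72% and 10.7% of flanking windows. ETS (CCGGAAG), PU.1 (GAGGAAGT), whose motif overlaps that of ETS by its inner letters, and NRF1 (GCGCNTGCG) matched in 2.01%, 2.24% and 0.447%, beside 6.39%, 3.55% and 3.89% of all merged regions, and the short E-box CANCTG in 58.3%, beside 53.7% of all merged regions. A match shows that the letters are present and nothing of the factor.

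AP-1 and RUNX matches were densest at the centres of the regions. Within 50 bases of the centre there were 2.11 AP-1 matches per 1000 bases, against 0.284 at 300 to 500 bases, 7.42 times as many. For RUNX the values were 0.671 and 0.248, 2.70 times as many, and for the homeobox motif 0.385 and 0.289, 1.33 times. In the pairs of ATAC2 and ATAC5 and of ATAC5 and ATAC6 the homeobox ratio was below 1, at 0.704 and 0.730. These ratios rest on few central matches. The bins of 50 bases on either side of the centre held 11 and 17 in ATAC2 and ATAC5. They held 9 and 12 in ATAC5 and ATAC6, against 49 and 37 in the regions. The AP-1 ratio in these pairs was 5.99 and 5.98, and the RUNX ratio 1.80 and 2.27.

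**Figure D4:**
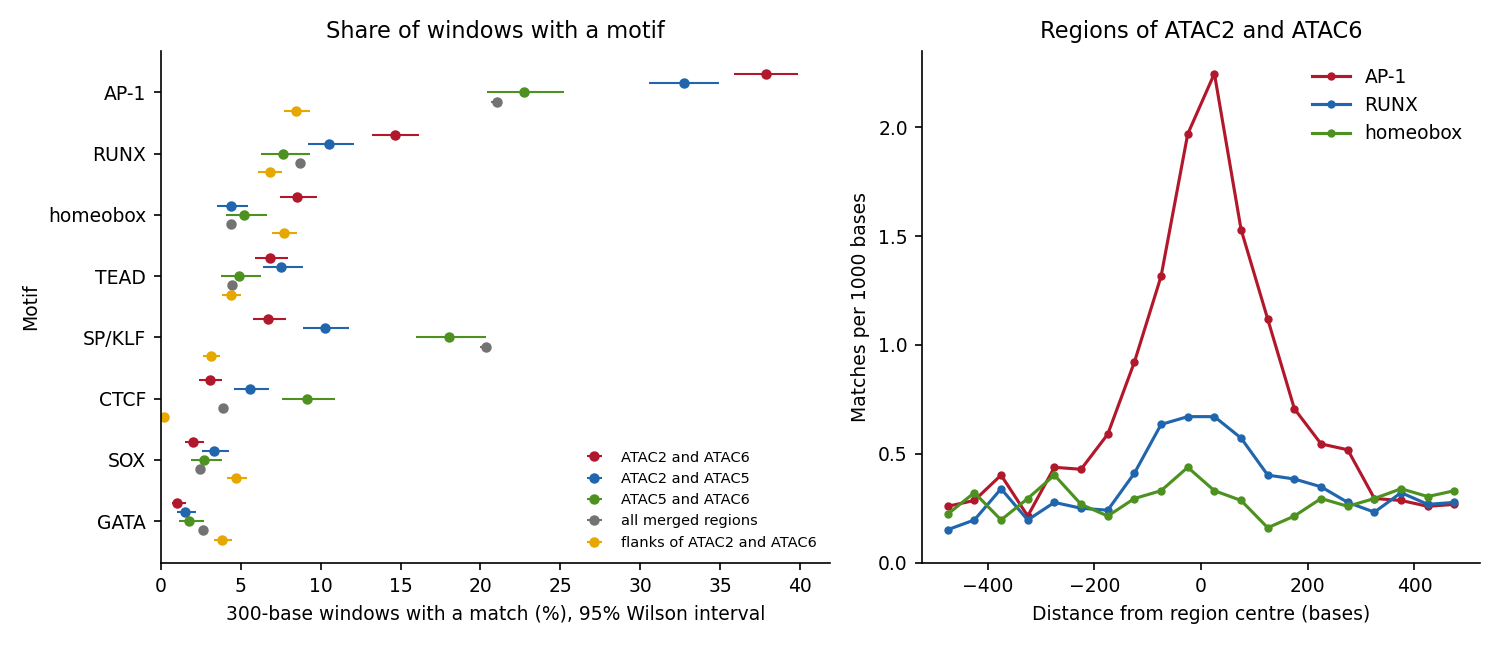
Left, share of 300-base windows with a motif (horizontal, percent, with 95% Wilson intervals) in 5 sets of windows; right, matches per 1000 bases (vertical) in bins of 50 bases by distance from the region's centre (horizontal), for the regions of exactly ATAC2 and ATAC6. AP-1 is in 37.9% of the red set and 8.48% of its flanks, and its matches peak at the centre, while the homeobox line stays near its outer level.

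RUNX was as frequent with AP-1 as without it. It was in 14.7% (12.4 to 17.2) of the 846 windows with AP-1 and in 14.6% (12.9 to 16.6) of the 1389 without it. The homeobox motif was in 9.22% and 8.14%. At least 2 AP-1 matches stood in 141 windows and 3 in 17. In all, 1211 windows (54.2%) held AP-1, RUNX, homeobox or TEAD. When the 1933 distal regions were put in 4 groups of like size by summed rank, best first, AP-1 was in 43.0%, 39.5%, 39.1% and 40.8%, while RUNX was in 17.4%, 17.4% and 17.6% and then in 10.6% (8.12 to 13.6) of the last. The homeobox motif was in 7.02%, 9.52%, 8.90% and 11.2%.

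A region was assigned to the protein-coding gene with the nearest start site if that lay within 50000 bases. This tied 1649 regions to 1416 of 22238 genes, 6.37%. Of these genes 1224 had 1 region, 158 had 2, 28 had 3, 5 had 4 and Mbp, the myelin basic protein gene, had 5. The 5 genes with 4 were Acan, Ttc7, Mep1b, Zbtb7c and Shroom3. Most of the genes had open start sites: 75.4% had a start-site peak in ATAC2 and 76.4% in ATAC6, against 50.3% and 51.7% of all protein-coding genes. The share was also above that of all protein-coding genes in the other libraries, 71.0% against 52.8% in ATAC5, 63.0% against 49.1% in ATAC1 and 54.4% to 56.4% against 42.1% to 43.8% in ATAC3, ATAC4 and ATAC7. A start-site peak in ATAC2 or ATAC6 can itself be one of the regions. In 46.8% of the genes the start site had a peak in all 7 libraries, and in 19.2% it had none, against 36.9% and 43.2% of all protein-coding genes.

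Of the 13 gene lists, that of cartilage had the highest share of regions of exactly ATAC2 and ATAC6. Of 20 listed chondrocyte genes 7 had a region (35%), and of the 82 merged regions assigned to them 11 were of exactly ATAC2 and ATAC6 (13.4%), against 3.87% of all assigned regions. The 7 were Sox9, the master factor of cartilage, its matrix targets Col2a1, Acan, Col11a1 and Comp, the hypertrophic collagen Col10a1, and Lect1, which codes for chondromodulin. Regions of ATAC2 alone stood at 14 of the 20 (70%, beside 14.7% of all protein-coding genes), and those of exactly ATAC2, ATAC5 and ATAC6 at 8 (40%, beside 9.04%). The list was written with earlier results known, 4 of the 11 regions lie at Acan, and with the same number of peaks from each library only 2 of the 20 genes had a region.

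Acan codes for aggrecan, the main proteoglycan of cartilage, and the densest stretch of regions in the genome included it and reached toward Isg20. In 100000 bases of chromosome 7, from a centre at 86116244 to one at 86201692, 7 of 10 merged regions were of exactly ATAC2 and ATAC6. The region upstream of the Acan start, chr7:86197532-86198191, had an ATAC2 peak with 206 reads over 44 Input reads and a pair of ATAC6 peaks. The one that overlaps the ATAC2 peak had 108 reads over 36, and the better-ranked one, which does not, had 71 over 25. No other library had a peak within 1000 bases of the start. The intronic region at chr7:86201544-86201841 had 64 reads over 5 in ATAC2 and 55 over 7 in ATAC6. Those upstream at chr7:86187592-86187795 and chr7:86188566-86188870 had 66 and 132 reads in ATAC2 and 51 in ATAC6 each. For these 4 the nearest ATAC5 peak was 52194 to 66146 bases away. The regions at chr7:86116049-86116439 and chr7:86116745-86117188 had ATAC5 peaks 59 and 67 bases away. The nearest protein-coding start site was that of Isg20, at 57123 and 57845 bases, so they were assigned to no gene. Of 6 regions assigned to Acan the other 2 were of ATAC2 alone.

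**Figure D5:**
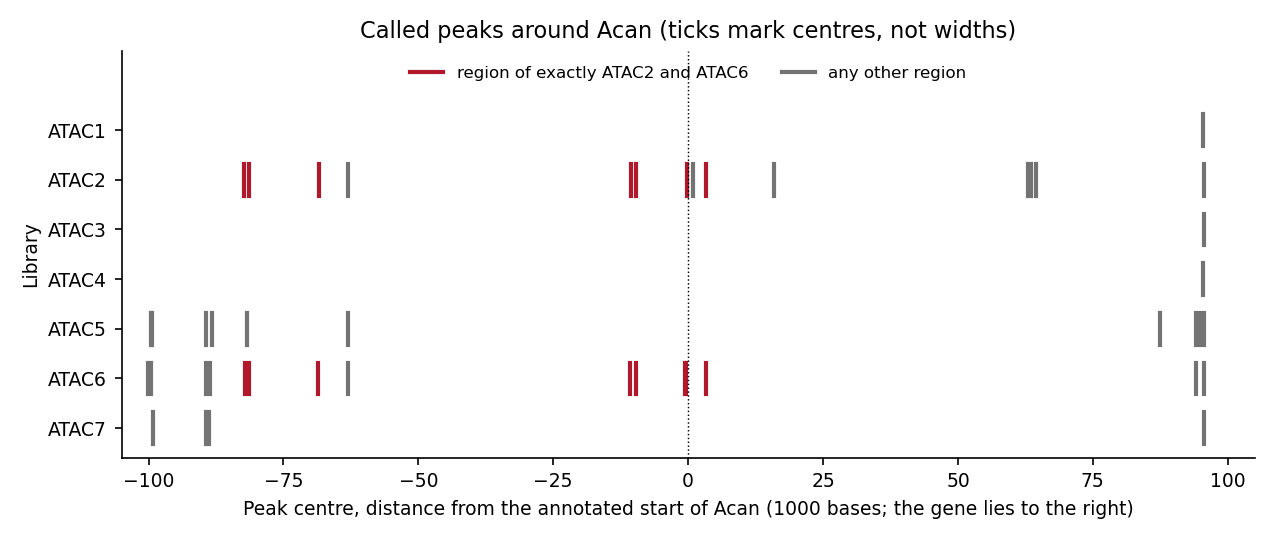
Centres of called peaks in the 7 libraries (rows) within about 100000 bases of the annotated start of Acan (horizontal, in units of 1000 bases from the start; ticks show centres and not widths). Red ticks belong to the 7 regions of exactly ATAC2 and ATAC6, and between the ATAC5 peaks centred at -63013 and 87534 bases from the start only ATAC2 and ATAC6 have peaks.

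At the other cartilage genes the regions were single or paired. Col10a1 had 2 in introns of the host gene Nt5dc1, with 166 and 144 reads in ATAC2 over 8 and 10 Input reads and 99 and 80 in ATAC6 over 5 and 7, and none of the 7 libraries had a peak at its start site. The Col2a1 region, 77 bases from a start site, had 104 and 89 reads over 40 and 43 Input reads, a fold of 4.11 and 3.26, with an ATAC5 peak at 66 bases. The Lect1 region had 218 reads in ATAC2 over 29 Input reads and 51 in ATAC6 over 7, a fold of 11.9 and 11.5 and a density of 471 and 467 scaled reads per 1000 bases, with an ATAC5 peak 155 bases away. The Col11a1 region shown above had 65 and 49 reads over 5 and 4. The Comp region had 81 and 53 reads and the Sox9 region 71 and 64, and the nearest other peaks were 5228 and 14307 bases away.

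Of 20 osteoblast genes 5 had a region (25%), and 7 of their 74 assigned regions were of exactly ATAC2 and ATAC6 (9.46%). They were Col1a2, a chain of the main bone collagen, Dlx5, a homeobox factor of bone, Sparc, or osteonectin, Pth1r, the parathyroid hormone receptor, and Tnfrsf11b, or osteoprotegerin, which blocks osteoclast formation. The Tnfrsf11b region, at chr15:54126055-54126260, had 159 reads in ATAC2 and 86 in ATAC6 over 13 and 12 Input reads, held an AP-1 match and had an ATAC5 peak 1750 bases away. The Col1a2 region shown above had 54 and 88 reads over 5 and 6, but an ATAC5 peak lay 10 bases away. The Dlx5 start-site region, 55 bases from the start, had 157 and 115 reads and an ATAC5 peak 27 bases away, and a second Dlx5 region had 123 and 71 reads with none within 6770 bases. Of 19 adipocyte genes 0 had a region and of their 50 assigned regions 0 were of exactly ATAC2 and ATAC6, beside 6.37% of all protein-coding genes and 3.87% of all assigned regions. Start-site peaks stood at 8 of the 19 genes in ATAC2 and at 8 in ATAC6.

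Of 26 further matrix genes 9 had a region, 9 of their 195 assigned regions (4.62%, beside 3.87% over all genes): Col5a1, Col5a2, Col6a3, Col14a1, Fbln2, Loxl2, Lamb1, Lamc1 and Vcan. The Vcan region, in an intron 418 bases from a start site of this versican gene, was the best-ranked of them, with 150 reads in ATAC2 and 151 in ATAC6 over 19 and 18 Input reads, and ATAC1 had a peak 4 bases away. The Fbln2 region had 44 and 45 reads over 4 Input reads each and held AP-1, and ATAC5 had no peak within 55036 bases. Of 20 AP-1 and immediate early genes 7 had a region (35%, beside 34.6% of the matrix genes and 6.37% of all protein-coding genes), 8 of 164 assigned regions (4.88%): Fos with 2, Jun, Atf3, Batf3, Ier3, Klf4 and Klf6. The Fos regions, 21720 and 22095 bases from the start, had 120 and 88 reads in ATAC2 and 72 each in ATAC6. The Atf3 region had 71 and 78 reads over 20 and 17.

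The signalling lists are given beside 6.37% of all protein-coding genes with a region and 3.87% of all assigned regions. In the TGF-beta and BMP list 5 of 29 genes (17.2%) had a region (5 of 173 assigned regions, 2.89%). These were the receptor genes Tgfbr2, Tgfbr3 and Acvr1, the ligand gene Bmp7 and the transducer gene Smad1. The Tgfbr2 region had 114 reads in ATAC2 and 88 in ATAC6 and no ATAC5 peak within 9969 bases, while an ATAC5 peak lay 1 base from the Tgfbr3 region. In the Wnt list 4 of 26 (15.4%) had one (4 of 82, 4.88%): Ctnnb1, which codes for beta-catenin, the repressor gene Tcf7l1, the inhibitor-related Dkk3 and the receptor gene Ror2. ATAC5 peaks lay 4 bases from the Tcf7l1 region and 3 from the Ror2 region. In the FGF and PDGF list 2 of 20 (10%) had one (2 of 82, 2.44%). The Fgf2 region had 252 reads in ATAC2 and 78 in ATAC6 over 22 and 15, with an ATAC5 peak 287 bases away, and the Pdgfc region 82 reads in both. Of 20 niche genes, which support blood stem cells, only the Notch ligand gene Jag1 had a region, with 51 and 77 reads.

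Markers of the labelled cell type had start-site peaks about as often as all protein-coding genes, of which 50.3% had one in ATAC2 and 51.7% in ATAC6, so they do not check the label. Of 20 stromal markers 11 had a start-site peak in ATAC2 and 9 in ATAC6, among them Pdgfra, Pdgfrb, Nt5e, Itgav and Cd44 in both, while Ly6a, Thy1 and Prrx1 had none in any library. Of 22 haematopoietic markers 5 had one in ATAC2 and 8 in ATAC6, Tal1, Lmo2, Runx1, Ikzf1 and Pax5 in both and Gata2, Kit and Myb in ATAC6, while Ptprc, the pan-leukocyte gene CD45, had none in either. Of 20 endothelial markers 3 and 4 had one, Vwf and Ets1 in both, Esam in ATAC2 and Erg and Egfl7 in ATAC6, while Pecam1, Cdh5 and Kdr had none in either. Among the stromal markers Nt5e, Itgav and Cd44 had regions of exactly ATAC2 and ATAC6, 4 of 91 assigned regions (4.40%). Over all genes the share was 3.87%, beside which this and the next 3 lists are given. The Itgav region shown above had 102 and 61 reads over 8 and 4 Input reads, and the shown Cd44 region 40 and 99 over 3 and 15. Runx1 alone had regions among the haematopoietic genes, 2 of 68 (2.94%), with 127 and 126 reads in ATAC2 and 90 and 56 in ATAC6, and Pecam1 and Erg among the endothelial ones, 2 of 66 (3.03%). In the ribosomal protein list 2 of 24 genes had a region, 2 of 41 (4.88%), and each library had a start-site peak at 22 to 24 of the 24. The part of contaminating cells in any of these regions was not tested.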

How the data were processed

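Open chromatin was measured by ATAC-seq in 7 libraries, each set against 1 Input library. The authors aligned reads to mm9 with bowtie and called peaks per library by the two-sample mode of CisGenome, with a p limit of 1e-05 and an FDR below 0.01. A Tn5 shift and a duplicate filter are not given in the sources used here. Without such a shift, peak edges can be off by a few bases. The deposited tables lack a header, so each column was identified by its values. The authors' columns are read counts of library and Input in an outer region (whole numbers), a fold that the authors computed as a ratio to Input with an offset of 0.01, signal values of the caller that set the rank, and a score-like position, which was not used. The total depth of the libraries is unknown, and the peaks held 3437628 to 8766021 library reads.

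Inclusive peak coordinates were merged at 1 shared base (bedtools 2.31.1 gave the same 50683 and 2235 regions), and the merging was tested on simulated data. Coordinates are as deposited. Positions came from GENCODE vM1 and sequence from NCBIM37, the same build as mm9, read with samtools 1.23.1. Motifs were searched on both strands. Shares have 95% Wilson intervals for counting error alone. The versions were matplotlib 3.10.9, scipy 1.17.1, pandas 2.3.3, numpy 2.4.6 and Python 3.11.15. Regions named were the 10 best by summed relative rank, the 10 best at least 1000 bases from a start site, the 3 with the fewest shared bases, the 3 nearest to another library's peak, the 3 just outside the rule, the densest 100000 bases, the gene with most regions, and listed genes with a region. Members, gene lists and motifs were chosen with earlier results of these data known. The data have 1 library per title, so no test was run. The alternatives tried were other joining distances, outer regions, fold and rank limits, start-site sets and windows, and assignment distances. Some named regions and a gene are not reported here.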

Additional observations from a re-analysis of the deposited data

How the results depend on the processing

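The number of regions was within 1.5 times of 2235 under 7 of 8 alternatives (2056 to 2340) and 553 with the same number of peaks from each library, where the pair was still the most numerous. The promoter share was 8.95% with peaks within 500 bases joined, 9.71% with outer regions, 17.0% at equal peak number, 8.46% with a window of 500 bases and 20.1% with 2500. The median distance to a start site was 15442 bases with peaks within 500 bases joined, 15198 with outer regions and 19852 for protein-coding start sites. At a fold of at least 5 and at equal peak number the median fold was 11.2 and 14.2 in ATAC2 and 9.69 and 12.5 in ATAC6.

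Within the merged regions themselves, not the windows, the AP-1 share of 36.1% was 38.6% in distal regions, and, in alternatives chosen after seeing the data, 40.2% in regions with no other peak within 5000 bases, 38.7% at equal peak number and 38.7% with peaks within 500 bases joined. RUNX, 13.2% in the merged regions, was 15.1% in regions with no other peak within 5000 bases, 15.5% with peaks within 500 bases joined and 11.9% (9.49 to 14.9) at equal peak number. The homeobox share of 7.74% was 5.61% at equal peak number and 9.19% with peaks within 500 bases joined. A peak of another library lay within 200 bases in 11.8%, 1000 bases in 21.5% and 5000 bases in 39.9%. Of the listed genes 48 had a region, and 21 with an assignment distance of 10000 bases. The cause of these shifts was not tested. No paired analysis was possible because no title has a second library. Total depth is unknown, and a region without a call in a library may lie below its peak limit there.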
